A study of Mus musculus with 2 samples.

Results

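Hemgn, Trim10, Acp5, Mrap, Apol8, Slc39a8 and Rgs12 are 7 of the 27998 genes of a mouse fetal liver CITE-seq matrix, of which 17768 had a transcript in any cell. They were chosen by measured values of these same cells, as genes that lead the S1 stage of erythroid differentiation or the cluster of cells around it. Their rise and their levels along the surface markers are therefore given as a description, without a test. In CITE-seq, barcoded antibodies are read along with the transcripts of each cell, and this places every cell by its surface proteins without sorting. The cells came from 7 pooled C57BL/6 livers at e13.5, with no treatment and no genetic change named in the labels. Ter119+ cells were partly depleted and then added back in equal number, so the share of each stage in the data was set by the experiment. The data are 1 cDNA library and 1 antibody library of the same 7863 cells, and there are no replicates.

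Red cells of the fetal liver arise from burst-forming and then colony-forming progenitors, which take up the transferrin receptor CD71 as they mature and lose the stem cell factor receptor cKit. Ter119, an epitope of the red cell membrane, appears when terminal differentiation begins, and globin transcripts then fill the cell. The 7 genes have different roles. Hemgn encodes hemogen, a nuclear protein of blood-forming cells, and Trim10 encodes a RING finger protein known from terminal erythroid differentiation. Acp5 encodes tartrate-resistant acid phosphatase, best known from osteoclasts and macrophages. Mrap encodes an accessory protein that brings the ACTH receptor to the cell surface. Slc39a8 encodes ZIP8, an importer of zinc and other metals, Apol8 a member of the apolipoprotein L family, and Rgs12 a regulator that speeds the GTPase activity of Gαi subunits.

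After filtering, 7244 cells were kept, with a median of 5802.5 unique molecular identifiers (UMIs, each standing for 1 captured transcript) and a range of 2510 to 30099. Of these, 6424 carried little of the 5 lineage antibodies. They were staged by antibody counts into 1510 S0-low, 1054 S0-medium, 612 S1, 1295 S2, 838 S3 and 898 S4/S5 cells, and 217 cells fell in no stage. S0-low, S0-medium and S1 cells had a Ter119 count of at most 24 and rising CD71, with limits at 233 and 761 counts. S2 cells had 25 to 88 Ter119 counts, and S3 and S4/S5 cells at least 89, with CD71 high in S3 and lower in S4/S5. The globin share of all UMIs was 1.05% for S0-low, 2.80% for S1, 13.1% for S2 and 64.0% for S4/S5. A gene's level is its UMI count per 1000000 UMIs of a cell (CPM), averaged over the cells of a group. Values in brackets are 95% intervals that cover counting error only, since cells of 1 library are not replicates. Fewer transcripts per cell and more transcripts of other genes cannot be told apart in CPM.

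The genomic windows around the annotated starts of the genes are shown first, with a search for the motif of GATA1, a main factor of erythroid genes. Whether GATA1 acts on the 7 genes was not tested. RefSeq lists windows of 300 bases, from 250 before to 50 after a start, for 6 of the 7 genes on GRCm38.p6, and none for Mrap. The GATA motif was searched on both strands as GATAA or GATAG with an A or T in front. It was found in 5 of the 10 windows and in at least 1 window of 5 of the 6 genes, while 29.8% of all 32851 windows hold it. A gene with several windows has more chances to hold a motif, and a match is a run of letters, not a binding site. 3 windows show the range, with the motif in capitals and each printed 5′ to 3′ on the strand of the gene. The Hemgn window at chr4:46404134-46404433 (minus strand) holds 2 motifs, the upstream Acp5 window at chr9:22135697-22135996 (minus strand) holds 4, and the Apol8 window at chr15:77756961-77757260 (minus strand) holds 0.
Hemgn: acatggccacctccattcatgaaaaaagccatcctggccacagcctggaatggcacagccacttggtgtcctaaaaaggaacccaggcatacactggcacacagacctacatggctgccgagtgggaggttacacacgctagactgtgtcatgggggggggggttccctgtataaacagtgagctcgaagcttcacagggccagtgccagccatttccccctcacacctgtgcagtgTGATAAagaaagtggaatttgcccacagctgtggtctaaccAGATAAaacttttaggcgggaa
Acp5: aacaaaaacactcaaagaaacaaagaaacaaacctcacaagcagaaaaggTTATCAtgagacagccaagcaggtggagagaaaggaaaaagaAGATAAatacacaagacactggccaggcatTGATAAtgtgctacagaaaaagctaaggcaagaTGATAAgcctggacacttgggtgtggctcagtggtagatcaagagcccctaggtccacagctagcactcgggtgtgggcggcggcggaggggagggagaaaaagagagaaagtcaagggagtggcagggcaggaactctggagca
Apol8: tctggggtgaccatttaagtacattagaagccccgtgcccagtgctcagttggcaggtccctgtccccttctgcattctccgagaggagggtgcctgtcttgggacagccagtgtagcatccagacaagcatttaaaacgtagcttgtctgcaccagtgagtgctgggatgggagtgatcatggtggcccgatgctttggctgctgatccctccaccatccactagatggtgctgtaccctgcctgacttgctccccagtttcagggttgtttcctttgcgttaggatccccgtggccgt
In Hemgn the motifs start 13 bases before and 29 bases after the annotated start. In Acp5 they lie from 200 to 95 bases before it, and the other 2 windows of Acp5 hold none. Trim10, Slc39a8 and Rgs12 each have 1 motif, in a single window. A CACCC-type motif, searched as CCNCNCCC, was found in 7 of the 10 windows against 49.5% of all windows, and TGANTCA in 2 of the 10 against 7.81%.

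With the main gates, all 7 genes were higher in S1 than in S0-low cells, by 3.33 to 12.5 times, and their intervals did not overlap. By that rule, 13.4% of the 9357 genes with at least 100 UMIs in the stages were higher in S1 than in S0-low cells. All 7 also rose by a fold of 2 or more on the scale of CPM plus 10, as did 1.72% of the 9577 genes with at least 50 UMIs in these cells; this contrast is the one that chose the genes. The rise had begun earlier, since S0-medium cells already held 2.63 to 4.02 times the S0-low level of each gene with these gates. The sizes depended on the gates. With a Gaussian mixture for the stages, the ratio of S1 to S0-low was larger for all 7 genes. Mrap then went from 6.68 to 150 CPM, against 33.6 to 183 CPM with the main gates. With log10 antibody counts the ratio was smaller for Acp5, which went from 29.2 to 173 CPM, against 53.4 to 339 CPM. From S0-medium to S1 a fold of 2 or more, again with 10 CPM added, was reached by 0.0808% of 8659 genes, and Apol8 alone of the 7 was among them. Despite their selection around S1, only Mrap, Slc39a8 and Rgs12 had their highest stage mean in S1. Acp5 and Apol8 had theirs in S2, the latter with an interval that overlapped S3, and Hemgn and Trim10 in S3.

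Hemgn, the most abundant of the 7, was at 81.0 CPM among S0-low (74.6–87.9), 289 among S0-medium and 567 among S1 cells (544–591). S2 cells held 1336, S3 cells 1525 and S4/S5 cells 544 CPM of it. The gene was thus still rising after S1, and its S4/S5 level overlapped that of S1. The last of these rests on the denominator, since without globin UMIs Hemgn in S4/S5 was 2.03 times its S1 level (1.90–2.16). In UMIs per cell it was lower in S4/S5, at 2.31 against 5.02 in S1. Trim10 followed the same course at a lower level, from 40.7 CPM in S0-low (35.9–46.0) and 152 CPM in S0-medium to 286 CPM in S1 (269–304), 676 in S2 and 1035 in S3 cells. Unlike Hemgn, it was kept in S4/S5 at 1014 CPM, with an interval of 980 to 1049 that overlapped that of S3 (1002–1070). Over S1, S2 cells had 2.36 times as much Hemgn (2.25–2.47) and 2.36 times as much Trim10 (2.21–2.53). These were the 2 of the 7 genes with a fold of 2 or more at that step with 10 CPM added, as for 0.998% of 8217 genes, while 2.14% were lower by as much and none of the 7 was.

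Acp5, the acid phosphatase, rose from 53.4 CPM in S0-low (48.3–59.0) through 182 CPM in S0-medium to 339 in S1 (322–357) and 407 CPM in S2 (393–421). S3 cells held 179 and S4/S5 cells 48.4 CPM of it. Its intervals in S1 and S2 did not overlap, so in CPM it was higher in S2 beyond counting error. In UMIs per cell the order turned, at 3.23 in S1 and 3.19 in S2. Its S4/S5 and S0-low intervals overlapped. Apol8 was the least abundant gene at the start, with 5.07 CPM in S0-low (3.45–7.34) from 41 UMIs. S0-medium cells held 20.4 CPM, S1 cells 63.5 (55.7–72.5), S2 cells 102 (94.2–110), S3 cells 85.2 (76.6–94.9) and S4/S5 cells 19.9 CPM. The intervals of S2 and S3 overlapped, but the interval of their ratio, 0.839 for S3 over S2 (0.735–0.956), did not hold 1. The S1 level was 12.5 times the S0-low level (8.46–18.8), the largest ratio among the 7, with an interval that is wide because of the low base.

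By the stage of highest mean CPM, Mrap, Slc39a8 and Rgs12 formed the earliest part of the set. For Mrap, S0-low cells held 33.6 CPM (29.6–38.1), S0-medium cells 113, S1 cells 183 (171–197), S2 cells 171 (162–180), S3 cells 66.1 and S4/S5 cells 15.4 CPM. Slc39a8, the metal importer, was at 67.5 CPM among S0-low cells (62.0–73.6), 178 among S0-medium, 238 among S1 (224–253), 234 among S2 (223–245), 103 among S3 and 26.4 CPM among S4/S5 cells. For both genes the CPM intervals of S1 and S2 overlapped, so in CPM their highest stage could not be placed between these. In UMIs per cell both were lower in S2 than in S1, Mrap at 1.32 against 1.80 and Slc39a8 at 1.78 against 2.34. Rgs12, the regulator of G proteins, moved from 16.8 CPM in S0-low (14.1–20.1) by way of 44.3 CPM in S0-medium to 56.0 in S1 (49.2–63.9). It then had 37.0 CPM in S2 (33.1–41.4), 13.5 in S3 and 4.21 in S4/S5. Its S1 and S0-medium intervals overlapped, but the interval of the ratio of S1 to S0-medium, 1.26 (1.06–1.51), did not hold 1. In CPM, Rgs12 was the only one of the 7 to fall from S1 to S2 beyond its intervals, to 0.661 of the S1 level (0.556–0.785). With the stages drawn on log10 antibody counts the direction turned, and the ratio of S2 to S1 was 1.31.

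In the last stage the set had split. Relative to S1, Rgs12 in S4/S5 was 13.3 times lower (7.68–23.8), Mrap 11.9 times lower (9.03–15.7), Slc39a8 9.02 times lower (7.31–11.2) and Apol8 3.19 times lower (2.43–4.23). Acp5 stood at 0.143 of its S1 level (0.122–0.167). Trim10 was 3.54 times higher (3.30–3.80). A fall by a fold of 2 or more, with 10 CPM added, was the common course, reached by 58.9% of 7334 genes and by 5 of the 7, with a median over all genes of −1.17 on the log2 scale. A rise of that size was reached by 2.44% of genes and by Trim10. On that scale Mrap ranked 31st from the lowest among the 7334 genes and Slc39a8 82nd, while Apol8 ranked 3162nd. α-globin, counted as the sum of the nearly identical Hba-a1 and Hba-a2, rose over the same stages from 3002 to 10703 CPM between S0-low and S1 and to 149901 CPM by S4/S5, so the filling of the cell with globin enters every one of these values. On CPM without globin UMIs the falls were smaller, at 4.76 times for Mrap (3.39–6.51), 4.47 for Rgs12 (2.28–8.50), 3.10 for Slc39a8 (2.44–3.91), 2.63 for Acp5 (2.19–3.14) and 1.46 for Apol8 (1.06–1.98), while Trim10 was 9.09 times higher (8.42–9.79).

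The stage in which a gene is highest depends on that denominator. With globin UMIs left out of it, the CPM of Mrap and Slc39a8 was higher in S2 than in S1, at 199 against 191 and 273 against 247, Apol8 was highest in S3 and Trim10 in S4/S5. Rgs12 was highest in S1 on this scale and in UMIs per cell. Counted as UMIs per cell, Acp5 was at 3.23 in S1 and 3.19 in S2, and Hemgn was higher in S2 than in S3, at 8.40 against 7.97. The number of genes highest in S1 was 3 by mean CPM, 4 in UMIs per cell, where Acp5 joined Mrap, Slc39a8 and Rgs12, 1 without globin UMIs, with pooled CPM, with antibodies scaled within each cell or with a Gaussian mixture for the stages, and 0 where the stages were drawn on log10 antibody counts. The rise from S0-low to S1 was present for 7 of 7 genes in every alternative that was run. As this contrast chose the genes in the same cells, that count is a description. The share of all genes under each alternative was not counted.

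**Figure D1:**
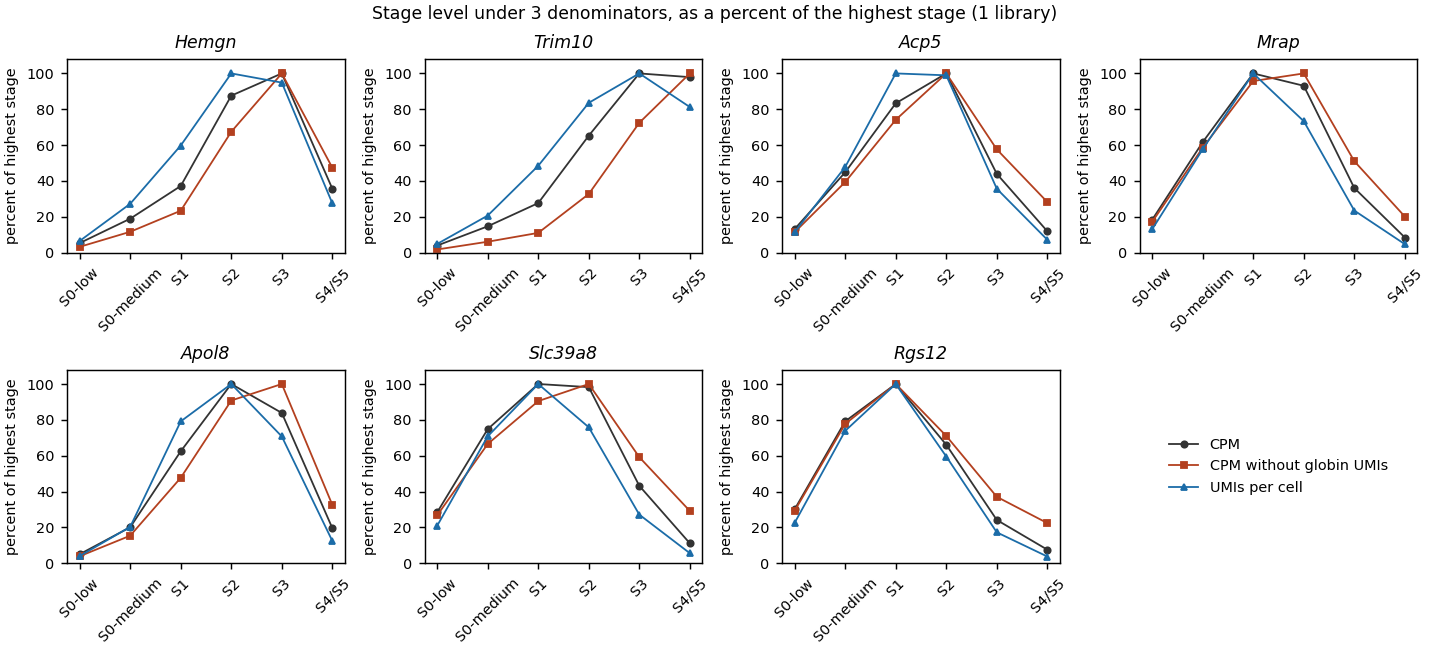
Mean level of each gene by stage on 3 scales, each as a percent of its highest stage: CPM (black circles), CPM without globin UMIs (red squares) and UMIs per cell (blue triangles), 1 library without error bars. All lines rise from S0-low to S1. Rgs12 peaks at S1 on all 3 scales, while the peaks of the other 6 genes move between stages with the scale.

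A finer order was read within the low-Ter119 cells, which were split into 10 groups of 317 or 318 cells by CD71. The median CD71 count rose from 14 in group 1 to 1493 in group 10, and the first 4 groups held S0-low cells only. Rgs12 and Slc39a8 were the first to reach 50% of their highest level among these groups, in group 5 at a median CD71 count of 213. Mrap followed in group 7 at 444 counts, Hemgn, Trim10 and Acp5 in group 8 at 614, and Apol8 in group 9 at 907. Among reference genes, Gata1, Tal1 and Epor reached 50% in group 3 and Klf1 and Tfrc (which encodes CD71) in group 4, before all 7. α-globin did so in group 8, the same as Hemgn, Trim10 and Acp5. Alas2 and Slc4a1 did so in group 9, the same as Apol8. The groups share 1 library, and the position depends on each gene's own maximum among these groups, which leaves out any later rise.

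Slc39a8 had 16.1 CPM in group 1 (9.87–25.5), 107 in group 4, 150 in group 5 (133–170), 188 in group 7 and 252 CPM in group 10 (233–273). Most of its rise thus lay among cells that were S0-low or S0-medium. Rgs12 moved from 10.8 CPM in group 1 (6.32–18.4) through 33.9 in group 5 to 58.5 CPM in group 9 (48.4–71.1), with group 10 at 54.7 CPM and overlapping groups 7 to 9. Mrap had 4.72 CPM from only 6 UMIs in group 1 and climbed through 57.5 in group 4 and 111 in group 7 to 201 CPM in group 10 (184–221). Groups 2 and 3 held 8.39 and 29.5 CPM of Mrap, so its steepest relative climb lay before group 4. In CPM its largest gain was from 165 in group 9 to 201 in group 10. From group 4 on the intervals of neighbouring groups overlapped, which cannot show whether the rise was gradual.

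Hemgn had 31.7 CPM in group 1 (22.8–43.5), 134 in group 4, 294 in group 7 and 656 CPM in group 10 (623–691). Trim10 had 17.5 CPM in group 1 (11.1–27.1), 74.9 in group 4, 137 in group 7 and 349 CPM in group 10 (325–377). In CPM both gained most between groups 9 and 10, whose intervals did not overlap. In relative terms both climbed most between groups 3 and 4, from 63.5 to 134 CPM for Hemgn and from 34.4 to 74.9 CPM for Trim10. Acp5 went from 26.9 CPM in group 1 (18.2–38.8) to 163 in group 7, 255 in group 8 and 380 CPM in group 10 (357–406). Relative to its maximum among these groups, Apol8 was the latest. Its groups 1 and 2 held 1 and 2 UMIs, group 8 had 25.5 CPM (18.4–35.4), group 9 had 52.4 (41.7–65.9) and group 10 had 71.7 CPM (61.4–84.3). Its intervals in groups 8 and 9 did not overlap.

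Other cell types thinned out along the same axis. Cells of clusters named as hepatocyte-like, macrophage-like or megakaryocyte-like made up 3.77% to 15.1% of groups 1 to 5 and at most 0.631% of groups 6 to 10, and the median depth rose from 4124.5 UMIs in group 1 to 10020 in group 10. The summed level of 9 hepatocyte markers was 4827 CPM in group 1, 13621 in group 3 and 662 CPM in group 10, all 9 being detected there. With those cells removed and the groups redrawn, the 7 genes reached 50% in the same groups, and the levels in group 1 were 32.0 CPM for Hemgn, 14.7 for Slc39a8 and 4.90 for Mrap. Markers of earlier and of myeloid cells were lower at its end as well. The summed level of 5 early progenitor markers was 1664 CPM in group 1 and 29.7 CPM in group 10, with Flt3 at 0 there, and that of 9 myeloid markers 1863 and 83.6 CPM, all 9 being detected in both. Of the 1510 S0-low cells, 330 lay in an unnamed cluster led by Cd34 and Plac8, whose 605 cells held 4.82 CPM of Mrap (2.83–8.37) and 8.44 of Rgs12 (5.61–12.8). With that cluster also removed, as tried after the data were seen, 1065 S0-low cells were left. They still held 255 cells of another unnamed cluster, led by Ifitm1, Gata2 and Cpa3, so other early cells may remain among them. The ratio of S1 to S0-low then ranged from 2.68 for Slc39a8 (2.41–2.98) to 9.43 for Apol8 (6.30–14.4), and in redrawn groups Rgs12 and Slc39a8 reached 50% in group 4, Hemgn, Acp5 and Mrap in group 7, Trim10 in group 8 and Apol8 in group 9. Depth moved with the rise, and its part in it was not tested beyond UMI scaling and thinning.

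**Figure D2:**
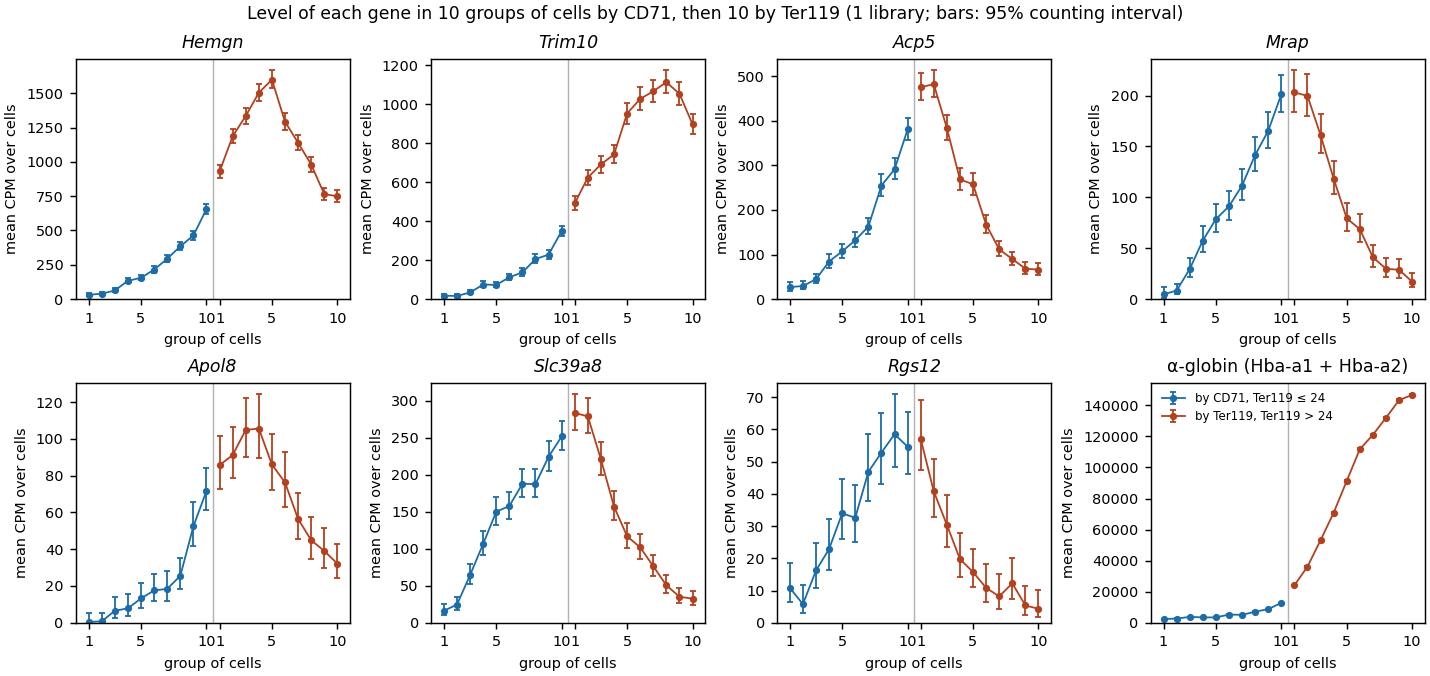
Mean CPM of each gene and of α-globin in 10 groups of low-Ter119 cells by CD71 (blue) and 10 groups of the remaining cells by Ter119 (red), with 95% counting intervals, 1 library. Slc39a8 and Rgs12 are past 50% of their blue maximum in group 5, Apol8 only in group 9, and the red lines fall early for Rgs12, Mrap, Slc39a8 and Acp5 but late for Hemgn and Trim10.

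Beyond a Ter119 count of 24, the cells were split into 10 further groups by Ter119, of 324 or 325 cells each. Mrap and Slc39a8 were highest in the first of them, at 203 CPM (184–225) and 284 CPM (260–310). Rgs12 had 57.1 CPM (47.4–69.2) there, overlapping its top in CD71 group 9. Acp5 was highest in Ter119 group 2 at 482 CPM (453–514), Apol8 in group 4 at 106 CPM (89.6–124), Hemgn in group 5 at 1599 CPM and Trim10 in group 8 at 1114 CPM. The order in which the genes peaked resembled that in which they rose among the CD71 groups, apart from Apol8. It rose last there, measured against its highest level in those groups, but peaked before Hemgn and Trim10. Measured against the highest level on both axes, Apol8 stood at 67.9% in CD71 group 10, Hemgn at 41.0% and Trim10 at 31.4%. Apol8 was then ahead of both, so the exception rests on which maximum is used.

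In the group with the most Ter119 the genes kept very different shares of their highest level. Trim10 kept 80.6%, Hemgn 46.9%, Apol8 30.5%, Acp5 13.7%, Slc39a8 11.4%, Mrap 8.47% and Rgs12 7.38%. These shares also rest on the denominator: without globin UMIs they were 85.3% for Trim10, 65.6% for Hemgn, 44.9% for Apol8, 29.1% for Acp5, 26.1% for Rgs12, 25.8% for Slc39a8 and 18.2% for Mrap. α-globin and Alas2, the first enzyme of heme synthesis in red cells, were highest in this group. In the last CD71 group, before Ter119, α-globin stood at 8.71% of its highest level, while Mrap stood at 99.0%, Rgs12 at 93.4%, Slc39a8 at 88.8%, Acp5 at 78.9%, Apol8 at 67.9%, Hemgn at 41.0% and Trim10 at 31.4%. All 7 were thus closer to their own maximum than α-globin at that point. This was not particular to the 7. Epor stood at 100%, Gata1 at 88.6%, Klf1 at 85.1%, Tfrc at 80.7%, Tal1 at 65.3% and Slc4a1 at 29.7%. Alas2 stood at 7.89% and β-globin at 7.19%, below α-globin. The share over all genes was not counted. On the same scale without globin UMIs, added after the data were seen, the percentages for the last CD71 group were 93.9 for Rgs12, 93.0 for Mrap, 28.3 for Hemgn and 13.6 for Trim10.

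**Figure D3:**
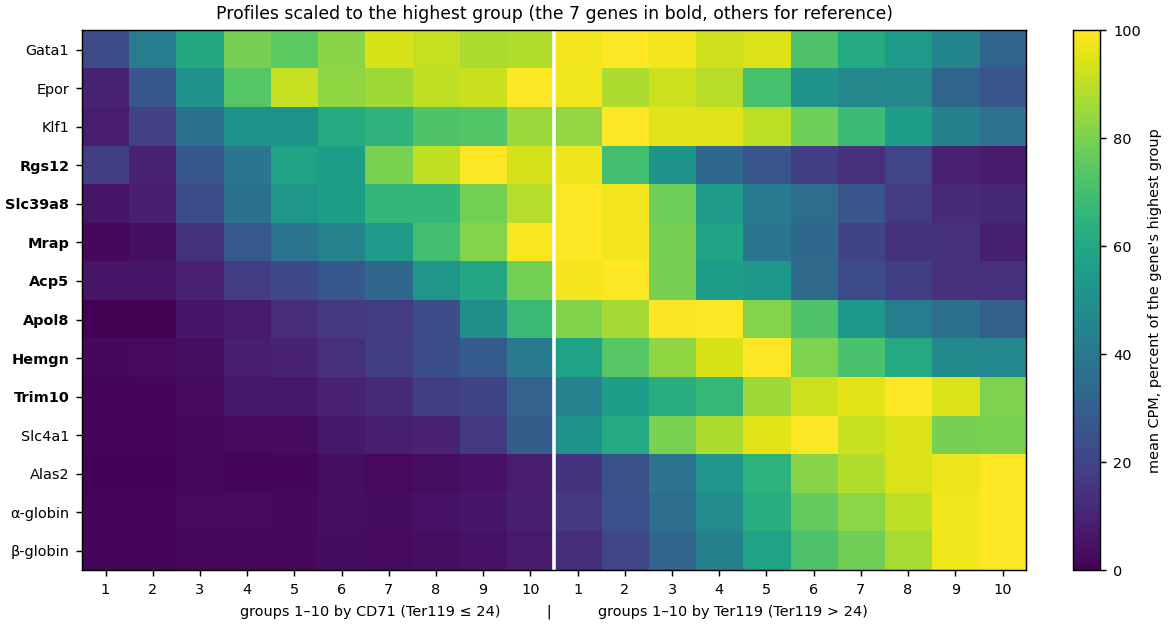
Mean CPM over the 20 groups, each row as a percent of the gene's highest group, with the 7 genes in bold between reference genes. The rows are in a chosen order. Among the 7 genes the brightest group moves from left to right, from Rgs12 through Slc39a8, Mrap, Acp5, Apol8 and Hemgn to Trim10. Gata1 and Epor, listed first, are brightest in Ter119 group 2 and CD71 group 10, to the right of Rgs12. α-globin and β-globin are brightest in Ter119 group 10.

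Over the 20 groups, the 7 profiles lay along a line from Rgs12 to Trim10. Pearson's r of log2 of CPM plus 10 was 0.987 for Mrap with Slc39a8, 0.952 for Acp5 with Mrap, 0.970 for Hemgn with Trim10 and 0.960 for Hemgn with Apol8. Between the ends of the set it was 0.257 for Apol8 with Rgs12 and −0.0906 for Trim10 with Rgs12. The points share 1 library, and the groups differ in depth and globin content, so these values describe the shape of the profiles only.

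Among 9380 genes with at least 100 UMIs, the profile most like Slc39a8 was that of Asns, asparagine synthetase (r = 0.988), followed by Mrap and by Mthfd2, a mitochondrial folate enzyme. Mrap was most like Slc39a8, then Asns and Pklr, the pyruvate kinase of liver and red cells (r = 0.978). Rgs12 was most like Osgepl1 (r = 0.975), Mff and Slc16a6. Acp5 was most like Ptdss2 (r = 0.972), Eif1 and Dck. Apol8 was most like Plek2 (r = 0.985), Abcb10, a mitochondrial transporter of the erythroid lineage, and Prnp. Hemgn was most like Fth1, the ferritin heavy chain (r = 0.997), Cd24a and Gmpr. Trim10 was most like Epb42, which encodes a red cell membrane protein (r = 0.996), and was also like Fam210b. The mean of the 7 scaled profiles was most like Slc43a3 (r = 0.985), then Hebp1, Tprgl, Noct, Uros, Mtfr1, Picalm and Acp1.

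The S1 gate was not uniform. Within the 612 S1 cells, 239 belonged to a cluster led by Fam132a and Prss50, 233 to a cluster led by Tmem14c and Ccnd3 and 96 to a cluster led by Rpgrip1 and Atp7b. Over all 1086 cells of the Tmem14c cluster, most of them in S2, Acp5 had 516 CPM, Slc39a8 299, Mrap 211 and Rgs12 60.6 CPM, the highest of the 16 clusters for these 4 genes. Apol8 was highest, at 114 CPM, in a cluster led by Cdkn2c and Dusp1, Hemgn, at 2064 CPM, in a cluster led by Hist1h2bc and Tinagl1, and Trim10, at 1772 CPM, in a cluster led by Xpo7 and Tmcc2. The 7 genes themselves were not used for the clustering, but they were chosen in the same cells.

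The S1 cells were split into 3 equal parts by α-globin UMIs, counted after every cell was thinned to the same number of UMIs. In relative terms, Trim10, Apol8, Hemgn and Acp5 rose more from the lowest to the highest part than Mrap, Slc39a8 and Rgs12. Within these sets the order was not that of the stages, since Apol8 rose most and Rgs12 more than Mrap and Slc39a8. From the lowest to the highest part, Trim10 went from 127 CPM (112–145) to 486 (445–532), Apol8 from 25.5 (18.7–35.7) to 106 (88.2–129) and Hemgn from 314 (291–340) to 930 CPM (873–990). Acp5 went from 221 (200.5–244) to 450 CPM (413–490.5). The early genes changed less, with Mrap at 144 (128–163) and 210 (184–239), and Slc39a8 at 197 (179–219) and 269 (240–301). Rgs12 had 37.9 CPM (30.03–49.1) in the lowest, 68.2 (55.9–84.0) in the middle and 61.8 CPM (48.2–79.4) in the highest part. Its highest and lowest parts overlapped, whereas its middle part stood above the lowest. Median depth fell from 12216 to 6440.5 UMIs and median CD71 rose from 994 to 1370.5 between the lowest and highest parts. In UMIs per cell, Mrap was at 1.75 and 1.60, Slc39a8 at 2.40 and 2.04 and Rgs12 at 0.475 and 0.466 in these parts. That is the opposite direction to their CPM, while Trim10, Apol8, Hemgn and Acp5 rose on both scales. After thinning, Slc39a8 was found in 38.7% and 38.2% of cells, and Mrap in 25.0% and 32.4% with overlapping intervals.

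By cKit the same S1 cells ran the other way. In the part with the least cKit, Hemgn had 878 CPM (821–939) and Apol8 102 (83.2–125), against 329 (306–354) and 27.3 CPM (20.9–36.7) in the part with the most. Rgs12 had 65.4 CPM (50.5–84.6) and 43.0 (34.7–54.2), which overlapped. Depth differed as well, with a median of 5294 UMIs in the part with the least cKit and 12671.5 in the part with the most. In UMIs per cell, Hemgn was at 5.38 and 4.39 and Apol8 at 0.647 and 0.348 in these parts, in that order. Rgs12 was at 0.417 and 0.549, the opposite direction to its CPM. By Ter119, which stayed at or below 24 in all S1 cells, Hemgn had 432 CPM (397–470) in the lowest and 736 (690–786) in the highest part. Rgs12 had 55.9 (44.0–71.6) and 53.4 CPM (42.9–67.6). Mrap had 146 (128–168) and 205 CPM (182–232), and Slc39a8 205 (184–230) and 274 CPM (247–304). Trim10, Acp5 and Apol8 were also higher in the highest part beyond their intervals. Rgs12 was thus close to level across S1 by Ter119, and no other gene of the 7 was.

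To compare shares of cells at equal depth, each cell was thinned to 2000 UMIs. Hemgn was then found in 12.2% of S0-low (10.6–13.9), 58.7% of S1 (54.6–62.6) and 86.3% of S2 cells (84.3–88.2), against 7.41% of hepatocyte-like cells. Trim10 rose from 6.09% of S0-low (4.94–7.42) to 40.0% of S1 (36.1–44.0) and 80.2% of S3 cells (77.3–82.8), against 0.529% of hepatocyte-like cells. Acp5 was found in 8.41%, 43.0% and 49.7% of S0-low, S1 and S2 cells, Mrap in 6.62%, 30.6% and 25.5%, and Slc39a8 in 12.3%, 40.5% and 34.6%. Apol8 was found in 0.993%, 11.9% and 18.4%, and Rgs12 in 3.58%, 8.82% and 6.95% of the same stages. Before thinning, at median depths of 6146 and 10151.5 UMIs, Hemgn was found in 32.7% of S0-low and 94.9% of S1 cells, and Rgs12 in 10.7% and 37.4%. Rgs12 in S0-medium, at 8.73% after thinning, had an interval that overlapped that of S1.

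**Figure D4:**
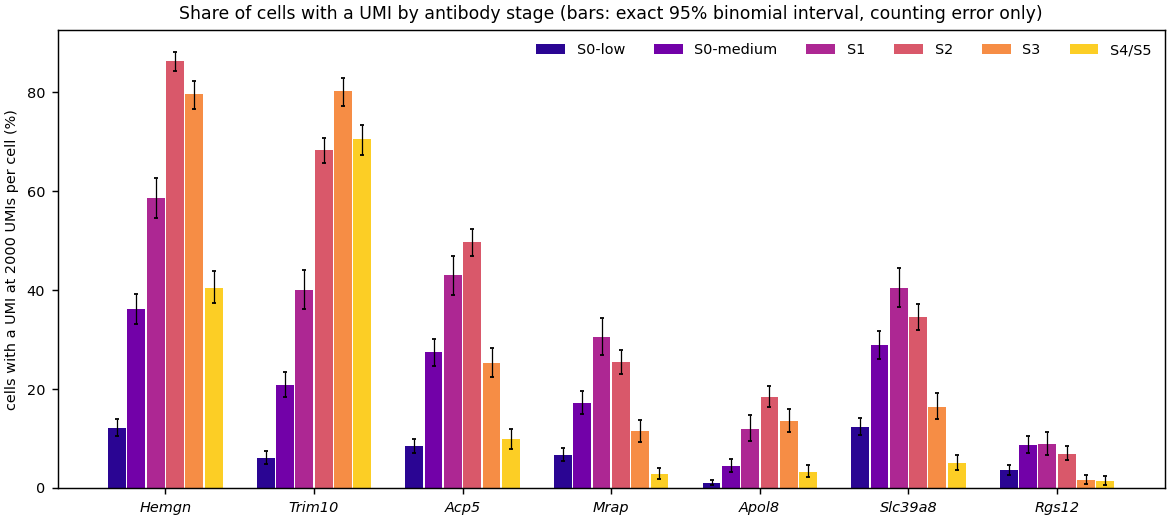
Share of cells with at least 1 UMI of each gene after thinning every cell to 2000 UMIs, by stage, with exact 95% binomial intervals for counting error. Hemgn is found in 58.7% and Rgs12 in 8.82% of S1 cells, and the bars of Mrap, Slc39a8 and Rgs12 are tallest at S1.

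At this depth, at least 3 of the 7 genes were found together in 3.44% of S0-low (2.58–4.49), 19.5% of S0-medium, 43.3% of S1 (39.3–47.3), 61.2% of S2 (58.4–63.8), 39.4% of S3 and 8.69% of S4/S5 cells. No S1 cell held all 7, and 53 of the 612 held none. Pairs were found in the same S1 cell 0.914 to 1.37 times as often as the product of their shares. Hemgn and Trim10 shared 174 cells against a product of 144, Acp5 and Apol8 43 against 31.4, and Slc39a8 and Rgs12 20 against 21.9. Sparse counts limit what these numbers show about single cells.

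Outside the erythroid lineage the genes were mostly low, with exceptions. Acp5 had 242 CPM (198–297) in the 80 macrophage-like cells, below its S1 level and above its S0-low level, and 74.9 CPM (61.8–91.7) in the 189 hepatocyte-like cells. Slc39a8 had 78.6 CPM (53.4–118) in 59 cells led by Mest, Sparc and Col3a1, overlapping its S0-low level. Hemgn had 116 CPM (87.7–153) in 99 cells led by Ngp and Camp and 99.1 CPM (75.2–131) in the 96 megakaryocyte-like cells, and both intervals overlapped that of S0-low.

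Mrap, Apol8 and Rgs12 stayed low in these cells, at 3.95 CPM (1.89–10.9), 2.35 (0.931–9.09) and 2.86 CPM (1.21–9.68) in hepatocyte-like cells. Mrap reached 31.6 CPM (16.3–59.4) in macrophage-like cells, from 16 UMIs, and overlapped S0-low there. Trim10 had 17.0 CPM (12.1–25.7) in hepatocyte-like cells, at a median depth of 13001 UMIs. Free RNA in droplets gives some UMIs to every cell, and how much of these low levels it supplied was not tested. The 71 cells led by embryonic globins had 36.1 CPM of Hemgn (19.5–66.4), 86.5 of Trim10 (58.0–128) and 78.5 of Slc39a8, and 39 of them lay in the S4/S5 gate.

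**Figure D5:**
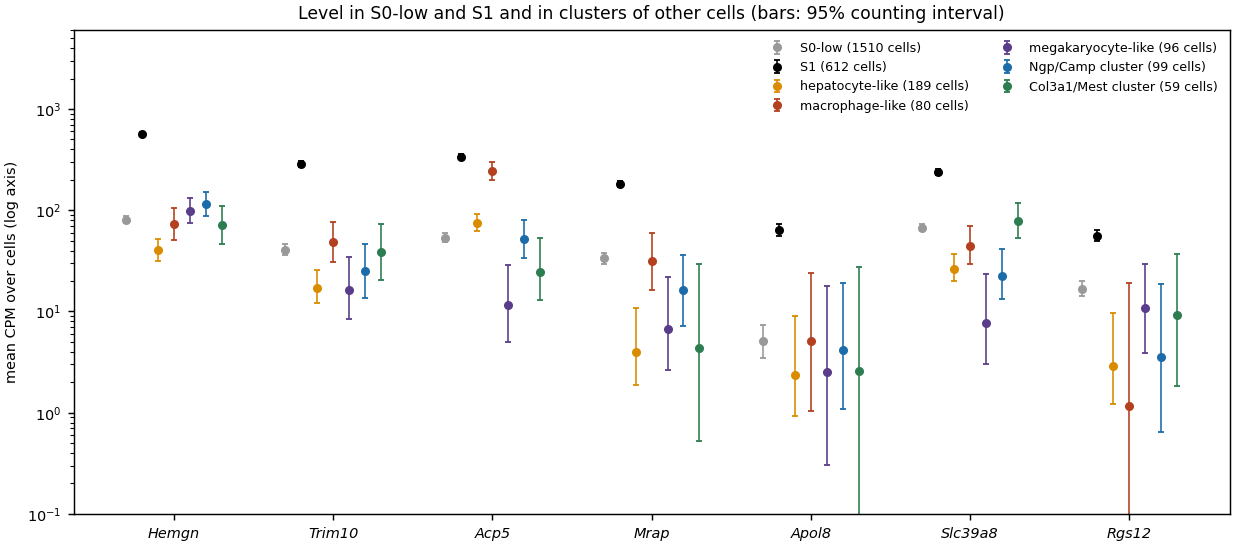
Mean CPM of each gene on a log axis in S0-low (gray), S1 (black) and in clusters of other cells (colors), with 95% counting intervals, which run off the axis where only 1 UMI was counted. S1 stands above every cluster plotted for all 7 genes, and Acp5 in macrophage-like cells, at 242 CPM, comes nearest to it.

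Relatives of the 7 genes were read by whether their S1 and S0-low intervals overlapped. Over all 9357 genes with at least 100 UMIs in the stages, 13.4% were higher in S1 by this rule and 32.0% lower, so a family with few higher members is near the background. Of 21 other TRIM genes with at least 100 UMIs, 2 were higher in S1 than in S0-low beyond their intervals, Trim59 and Trim2, 7 were lower and 12 overlapped. Trim59 went from 47.3 to 87.5 CPM and on to 248 CPM in S3, while Trim28, a chromatin corepressor, went from 143 to 73.3 CPM. Of 9 other SLC39 importers 0 were higher, 5 were lower, such as Slc39a1 from 116 to 37.0 CPM, and 4 overlapped. Among 6 zinc exporters of the SLC30 family, Slc30a10, a manganese exporter, went from 15.7 to 52.4 CPM and Slc30a9 from 31.4 to 47.5, Slc30a7 was lower and 3 overlapped.

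Of 4 other RGS genes, Rgs10 was higher in S1, at 225 against 175 CPM in S0-low, and Rgs18, Rgs19 and Rgs2 were lower, Rgs18 going from 85.4 to 4.83 CPM. Among partners of RGS12, Hras was higher, from 132 to 191 CPM, Gnai2 was lower, from 253 to 135 CPM, and Gnai3 and Braf overlapped. Acp1, a cytosolic phosphatase, went from 454 to 992 CPM, Acp6 from 34.6 to 17.1 CPM, and Acp2 overlapped. Apol11b, the other APOL gene with at least 100 UMIs, was at 0.390 CPM in S0-low and 2.22 in S1 with overlapping intervals, and at 34.9 CPM in S3. Whether reads were split between near copies of the APOL family was not tested. No melanocortin receptor reached 100 UMIs, and Mc2r, the ACTH receptor served by MRAP, had 63 UMIs over the staged groups.

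Of 10 erythroid regulators, 5 were higher in S1 than in S0-low, 3 were lower and 2 overlapped. Klf1 went from 259 to 639 CPM, Gata1 from 125 to 201 and Tal1 from 88.7 to 154 CPM, all smaller ratios than those of the 7 genes. A rise of this size was not particular to the 7. Among other reference genes the ratio was 12.3 for Slc4a1, 4.60 for Alas2 and 3.57 for α-globin, within the range of the 7. It was 3.28 for β-globin, 2.62 for Tfrc and 1.98 for Epor, below that range. Gata2, which precedes Gata1 in progenitors, fell from 39.4 to 0.355 CPM. The ratios of the 7 ranked 2nd for Hemgn, 4th for Trim10, 5th for Acp5, 7th for Apol8, 11th for Mrap, 37th for Slc39a8 and 93rd for Rgs12 among the 9577 genes, with 10 CPM added, which restates how they were chosen.

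The 7 genes lie on 7 chromosomes of GRCm38.p6. Hemgn is at chr4:46393989-46404183 and Acp5 at chr9:22126727-22135746, both on the minus strand, and Slc39a8 is at chr3:135816882-135888572 and Rgs12 at chr5:34948929-35039642 on the plus strand. Trim10 is at chr17:36869496-36877833, Mrap at chr16:90738207-90749785 and Apol8 at chr15:77745109-77757062. Of the nearest annotated genes on each side that the matrix holds, Anp32b, 46743 bp from Hemgn, was higher in S1 than in S0-low, at 2977 against 1846 CPM. Trmo, 432 bp from Hemgn, and Urb1, 1742 bp from Mrap, overlapped between these stages, as did Elof1, 9532 bp from Acp5. Trim15, 2129 bp from Trim10, had 5 UMIs and Apol9b, near Apol8, had 0 UMIs. Myh9 near Apol8, Nfkb1 near Slc39a8 and Hgfac near Rgs12 were lower in S1. Gm17518 near Mrap had 29 UMIs and Msantd1 near Rgs12 had 9, and both overlapped. Anp32b was thus the only measured neighbour higher in S1. Over all 9357 genes with at least 100 UMIs, 13.4% were higher by this rule, so few higher neighbours is near the background. Neighbours with few or no UMIs could hardly show a rise.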

How the data were processed

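CITE-seq libraries of 7 pooled C57BL/6 fetal livers were analysed, 1 cDNA library and 1 antibody library of the same 7863 cells. The authors mapped the cDNA reads to mm10 with Cell Ranger and deposited the raw UMI counts of all called cells, which are not normalized and precede their filters. The authors also deposited raw counts per antibody and cell, made with CITE-seq-Count. Of the antibody counts, 1.05% matched no antibody.

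The study's limits of 300 to 5000 genes per cell and 9% mitochondrial UMIs left out 508 cells. Scrublet, with a doublet rate of 6%, marked 128 cells (1.63%), which were removed. Lineage-low cells had at most 95.8 summed counts of 5 lineage antibodies, the median plus 2 scaled median absolute deviations on a log scale. The study's text gives no gate positions, so Ter119 and CD71 counts, scaled by the centered log ratio, were split by k-means into 3 classes for Ter119, 3 for CD71 at low Ter119 and 2 at high Ter119. The groups along CD71 and Ter119 hold equal numbers of cells. The genes and lists described here were chosen with earlier results of these data known, as was the rule for named genes: the 7 genes, the 3 genes most like each and the 8 most like their mean, their neighbours, their families and the reference genes. The results of 2 genes under this rule are not reported here.

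Levels are the mean over cells of CPM, with Fay-Feuer intervals. Ratios combine 2 such intervals, and shares carry exact Clopper-Pearson intervals, all at 95% and for counting error only. With 1 library no test was possible. Folds of 2 for counts over all genes were taken with a pseudocount of 10 CPM. Clusters were made without the 7 genes from 2000 variable genes, 16 principal components and 30 neighbours at a resolution of 0.8, and were named where 3 markers stood among the top 10 genes by fold, a rule set with the clusters known. On simulated counts for S1 over S0-low, 200 of 200 changed genes came out in the right direction and 192 of their intervals held the true ratio. Over all 9109 genes drawn 96.5% did. Simulated cells of a stage shared the same profile and differed only by depth and counting error, as the intervals assume. How the intervals do when cells of a stage vary was not tested. Positions and windows are those of RefSeq on GRCm38.p6, the patched form of mm10. Alternatives changed the denominator, the mean, the gates, the filters, the doublets and the groups. Clustering ran in scanpy 1.11.5 with igraph 0.11.9, k-means in scikit-learn 1.9.0, intervals in scipy 1.17.1 and tables in pandas 2.3.3 and numpy 2.4.6, under Python 3.11.15 and with seed 7. Plots were drawn with matplotlib 3.10.9.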

Additional observations from a re-analysis of the deposited data

How the results depend on the processing

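The number of genes higher in S1 than in S0-low was 7 under all alternatives that were run, for the contrast that chose them in the same cells. The size of that rise moved with the gates. Slc39a8 went from 20.3 to 206 CPM with Gaussian mixture classes, against 67.5 to 238 CPM under the main setting. The number highest in S1 was 3, and became 1 with pooled CPM, without globin UMIs in the denominator, with the antibodies scaled within each cell and with Gaussian mixture classes, Rgs12 in each case, 0 with log10 of the antibody counts and 4 in UMIs per cell, where Acp5 joined the 3. Of 350 ratios between stages of the 7 genes under these alternatives, 196 moved by no more than their interval, 133 moved further on the same side of 1 and 21 passed to the other side. In 15 of the 21 the interval under the main setting held 1, so their direction was open from the start: under pooled CPM, CPM without globin UMIs and the 3 other ways to draw the stages, S4/S5 over S1 was 1.09 to 2.03 for Hemgn, and S2 over S1 was 1.04 to 1.77 for Mrap and 1.08 to 1.49 for Slc39a8. The other 6 had a direction beyond counting error. With log10 of the antibody counts, the ratio of S3 to S2 was 1.25 for Apol8, that of S4/S5 to S1 was 1.07 for Apol8, and that of S2 to S1 was 1.31 for Rgs12. Without globin UMIs, Apol8 in S3 was 1.10 times its S2 level. In UMIs per cell, Hemgn in S3 was 0.949 times its S2 level and Acp5 in S2 0.989 times its S1 level. Why the gates move these values was not tested, but the number of cells staged as S0-low fell from 1510 to 609 with log10 counts. Of the 29 pairs of 1 of the 7 genes or their mean with a gene named as most like it, 10 were also named by the Spearman correlation. A gene can stand in more than 1 pair, as Asns does. No paired analysis was possible because there is 1 library. Depth leaves Apol8 with 41 and Rgs12 with 184 UMIs in S0-low, and differences between animals or libraries could not be measured.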
